A study of Sus scrofa with 6 samples.

Results

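The pluripotency genes POU5F1, ZFP42, DNMT3B, DPPA5, NR0B1 and NR5A2 were followed across 6 cultured pig samples measured by Affymetrix arrays. Every probe set that the platform annotation assigns to exactly 1 of these symbols was taken, which gave 10 probe sets out of 23999, for 6 genes out of 6765 with a symbol. NR5A2 has 5 probe sets and each of the other genes has 1. The genes were chosen as known pluripotency genes with earlier results of these data in view.

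Total RNA was hybridised with 1 array per sample. Of the 4 induced pluripotent stem (iPS) lines, iPF4-2 and iPSCs-w are labelled positive for the stage-specific embryonic antigens SSEA3 and SSEA4, PS24 for SSEA1, SSEA3 and SSEA4, and 30AC5 for SSEA1. The somatic pair comprises fibroblasts from embryos (PEF) and stem cells from amniotic fluid (PAFSC). All cells were kept in DMEM with fetal bovine serum, and the iPS lines grew on growth-arrested fibroblast feeders from ICR mice. The labels used here name no reprogramming factors for these lines, and each line is 1 array. The p-values below therefore measure only the spread between these samples, which are different lines and cultures rather than repeats.

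In the early embryo and in pluripotent cells, a small set of transcription factors keeps its own genes active and differentiation genes silent. POU5F1 encodes OCT4, the factor at the centre of that circuit, and NR5A2 and NR0B1 are orphan nuclear receptors which act on OCT4 or its gene in mouse embryonic stem cells. ZFP42 (REX1), DPPA5 and the DNA methyltransferase DNMT3B are genes of early embryonic and pluripotent cells that are widely used as markers. SSEA1 is the surface antigen typical of mouse embryonic stem cells, and SSEA3 and SSEA4 are typical of human ones.

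Each value is a log2 number relative to a baseline of its own probe set. Arrays can be compared for 1 probe set, but the level of one gene cannot be set against that of another. The PAFSC array stood apart, with a median of 0.70 and an SD of 2.01 over all probe sets, against medians of -0.06 to 0.05 and SDs of 0.610 to 0.808 on the other arrays. A positive PAFSC value is therefore read together with its percentile, the share of all probe sets on the same array with a lower relative value. PS24 and iPSCs-w differed in control probe sets. In PS24 the 5' minus 3' value of actin, EF1A and GAPDH averaged -1.90, against -0.03 to 0.19 in 30AC5, iPF4-2, iPSCs-w and PEF and 1.90 in PAFSC. The bacterial BioB hybridisation spike averaged -2.92 in iPSCs-w and 2.05 in PAFSC, and -0.17 to 0.98 elsewhere. The part of these in the values below was not tested.

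The genes did not mark the iPS lines as a whole. They were high in iPF4-2 and iPSCs-w, the lines labelled with SSEA3 and SSEA4 only, while PS24 and 30AC5 lay near or below the somatic samples for most of them. POU5F1, DNMT3B and DPPA5 were higher in both SSEA3/SSEA4-only lines than on each of the other 4 arrays, as were 8.48% of all probe sets. That count rests on the shifted PAFSC array. With each array centred on its median, 7 of 10 member probe sets lay above the other 4 arrays in both lines, against 10.3% of all, and after quantile normalization 8 did, against 11.3%. ZFP42, NR0B1 and NR5A2 joined the first 3 genes under both scalings. With all 6 arrays and the values as deposited, limma called no member in any of the comparisons below. In bulk RNA, fewer cells of a type and less RNA per cell cannot be told apart.

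**Figure D1:**
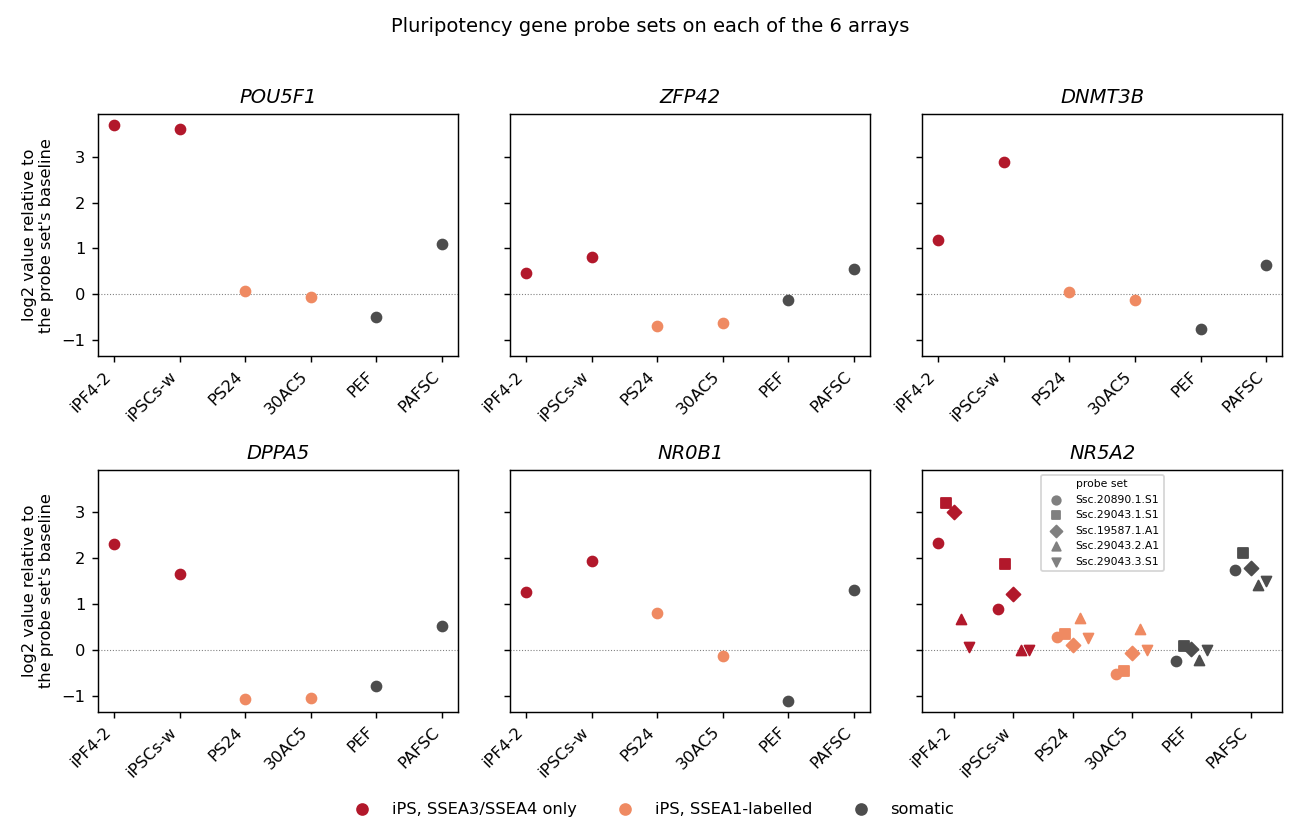
Relative log2 value (vertical axis) of the 10 probe sets on each of the 6 arrays (horizontal axis), 1 panel per gene and 1 point per array; dark red points are SSEA3/SSEA4-only lines, orange points SSEA1-labelled lines and grey points somatic samples. POU5F1 is 3.68 and 3.61 in iPF4-2 and iPSCs-w and at most 1.09 elsewhere, and 2 of the 5 NR5A2 probe sets (triangles) lack the high values of iPF4-2 and iPSCs-w that the other 3 show.

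POU5F1, the gene of OCT4, was 3.68 in iPF4-2 and 3.61 in iPSCs-w. It was 0.07 in PS24 and -0.07 in 30AC5, and -0.50 in PEF and 1.09 in PAFSC. The SSEA3/SSEA4-only lines thus lay above both other groups without overlap, and their 2 values differed by only 0.074. Between these 2 lines 12.5% of all probe sets differed by less. Within its own array POU5F1 stood at percentile 99.8 in iPF4-2 and 99.8 in iPSCs-w, and at 52.2 in PS24, 39.0 in 30AC5, 15.9 in PEF and 58.1 in PAFSC. Read as base 2 logarithms, POU5F1 in iPF4-2 was 12.3-fold above PS24, 13.5-fold above 30AC5 and 18.2-fold above PEF. In PAFSC, the array with the shifted median, POU5F1 sat close to the middle of the array, and after each array was centred on its median the PAFSC value was 0.40.

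DPPA5, which encodes a small RNA-binding protein of the embryo and of pluripotent cells, followed the same order at the top. It was 2.31 in iPF4-2 and 1.64 in iPSCs-w, -1.07 in PS24 and -1.04 in 30AC5, and -0.80 in PEF and 0.52 in PAFSC. Both SSEA1-labelled lines were below both somatic samples, and both SSEA3/SSEA4-only lines were above them. PS24 and 30AC5 stood at percentiles 4.31 and 3.16 of their arrays for DPPA5, against 99.3 in iPF4-2 and 98.0 in iPSCs-w.

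DNMT3B, one of the enzymes that sets new DNA methylation in the early embryo, was 1.18 in iPF4-2 and 2.88 in iPSCs-w. PS24 had 0.04 and 30AC5 -0.12, and PEF had -0.75 and PAFSC 0.64. The SSEA3/SSEA4-only lines were again the 2 highest arrays, but iPF4-2 exceeded PAFSC by only 0.547, within the pooled SD of 0.897 inside the 3 groups. Within its own array DNMT3B stood at percentile 96.89 in iPF4-2 and 48.95 in PAFSC. Between these lines the DNMT3B difference of -1.70 (iPF4-2 minus iPSCs-w) was larger in size than 96.6% of all probe sets, with 1 array each and no test.

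ZFP42, a zinc finger gene known as REX1, had the narrowest span of the single-probe-set genes. Its values were 0.47 in iPF4-2 and 0.80 in iPSCs-w, -0.69 in PS24 and -0.62 in 30AC5, and -0.12 in PEF and 0.55 in PAFSC. Only 23.3% of probe sets had a smaller range over the 6 arrays than its 1.50. The SSEA1-labelled lines were the 2 lowest arrays, at percentiles 8.92 and 8.99, and the SSEA3/SSEA4-only lines overlapped with PAFSC. After median centring they did not, with ZFP42 at 0.45 in iPF4-2 and 0.80 in iPSCs-w, against -0.15 in PAFSC.

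NR0B1, also called DAX-1, is an orphan nuclear receptor without the usual DNA-binding domain that represses other receptors. It was 1.26 in iPF4-2 and 1.93 in iPSCs-w, 0.81 in PS24 and -0.13 in 30AC5, and -1.11 in PEF and 1.31 in PAFSC. Here PS24 was on the high side, at percentile 93.3 of its array, where 30AC5 stood at 32.6. PAFSC stood at percentile 63.1, against 97.2 in iPF4-2 and 98.7 in iPSCs-w. Every step between neighbours in the order of the 6 arrays was smaller than the pooled within-group SD of 1.09, so neighbouring levels are not resolved. The highest and lowest arrays, iPSCs-w and PEF, lay further apart than that SD.

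For the other genes the same yardstick separates few levels. The pooled SD was 0.655 for POU5F1, where the steps from iPF4-2 to iPSCs-w, PS24 to 30AC5 and 30AC5 to PEF were smaller and the step from iPSCs-w down to PAFSC was larger. It was 0.602 for DPPA5, where PEF, 30AC5 and PS24 were not separated, and 0.306 for ZFP42, where iPSCs-w, PAFSC and iPF4-2 were not. Much of that spread came from the somatic pair: for POU5F1 the SD was 0.052 in the SSEA3/SSEA4-only lines and 0.096 in the SSEA1-labelled lines, against 1.13 between the 2 somatic samples (n = 2 each).

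NR5A2, the orphan receptor LRH-1 that binds the Pou5f1 gene in mouse embryonic stem cells, is covered by 5 probe sets, and they gave 2 different pictures. Probe set Ssc.29043.1.S1_at was 3.21 in iPF4-2 and 1.86 in iPSCs-w, 0.35 in PS24 and -0.46 in 30AC5, and 0.08 in PEF and 2.12 in PAFSC. Ssc.19587.1.A1_at (2.99 in iPF4-2, 1.22 in iPSCs-w) and Ssc.20890.1.S1_at (2.33 in iPF4-2, 0.89 in iPSCs-w) ran alongside it, with iPF4-2 the highest array in all 3, though within the pooled SD of PAFSC for Ssc.20890.1.S1_at. Among the other arrays, PAFSC and iPSCs-w lay within the pooled SD of 1.03 to 1.05 of each other in all 3. So did neighbours among PS24, PEF and 30AC5. By percentile within its own array, PAFSC stood at 74.6 to 86.0 for these 3 probe sets and iPSCs-w at 93.1 to 98.6. The step from iPSCs-w down to PS24 was larger than the pooled SD for Ssc.29043.1.S1_at and Ssc.19587.1.A1_at, but not for Ssc.20890.1.S1_at. In these 3 probe sets iPF4-2 exceeded iPSCs-w by 1.34 to 1.78, and 94.3% to 97.0% of all probe sets differed by less between the 2 lines.

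The remaining pair of NR5A2 probe sets did not separate the iPS lines in that way. Ssc.29043.2.A1_at was 0.67 in iPF4-2, -0.01 in iPSCs-w, 0.68 in PS24, 0.46 in 30AC5, -0.23 in PEF and 1.42 in PAFSC. Ssc.29043.3.S1_at kept within 0.274 of itself on the 5 arrays other than PAFSC, a range that only 3.07% of probe sets undercut, and was 1.49 in PAFSC. Across the 6 arrays the first 3 probe sets correlated with each other at Pearson's r of 0.972 to 0.979, and with the remaining pair at 0.283 to 0.543 (-0.119 to 0.365 without PAFSC). These correlations describe 6 arrays that the probe sets share. The files do not give where on the gene each probe set lies, so NR5A2 is reported by probe set and not as 1 level.

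**Figure D2:**
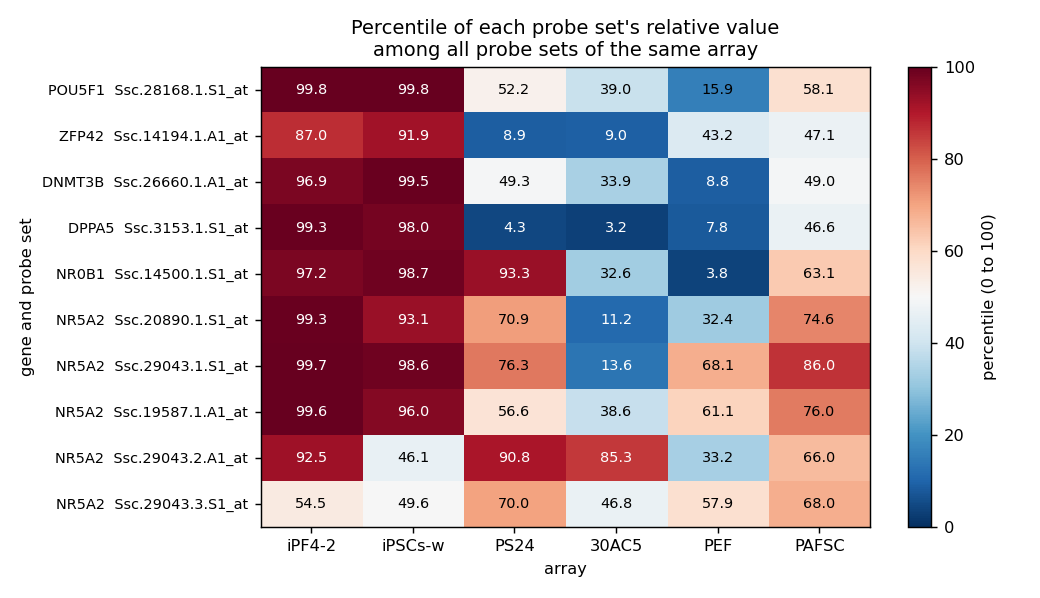
Percentile of each probe set's relative value among all 23999 probe sets of the same array, for 10 probe sets (rows) on 6 arrays (columns); red is high and blue is low. The percentile runs from 87.0 to 99.8 in iPF4-2 and iPSCs-w except for 2 NR5A2 probe sets, and from 46.6 to 86.0 in PAFSC.

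The first comparison set the marker classes of the iPS lines against each other, SSEA3/SSEA4-only minus SSEA1-labelled. Of the 10 member probe sets, 8 were higher in both SSEA3/SSEA4-only lines than in both SSEA1-labelled lines and none was lower in both, while 20.2% of all probe sets were higher without overlap. The median difference over the members was 1.90, against -0.01 over all probe sets. With 2 lines each, an exact two-sided permutation test cannot give a p below 0.333. In limma, fitted over all probe sets with the somatic pair in the estimate of the spread, 0 of 10 were called at an adjusted p under 0.05, as were 0% of all probe sets. At an unadjusted p under 0.05 there were 5 members, against 2.84% of all probe sets; the 5 were positive, as were 1.12% of all at that level. Since 2 of the 5 are probe sets of NR5A2 and the genes were chosen with results known, this count describes them and is no independent evidence.

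POU5F1 averaged 3.65 ± 0.05 in the SSEA3/SSEA4-only lines and -0.00 ± 0.10 in the SSEA1-labelled lines (SD, n = 2 each), a difference of 3.65 (SE 0.72, limma adjusted p = 0.444, 95% interval 1.98 to 5.32). DPPA5 averaged 1.98 ± 0.47 against -1.06 ± 0.02, a difference of 3.03 (SE 0.70, limma adjusted p = 0.649). For DNMT3B the averages were 2.03 ± 1.20 and -0.04 ± 0.12, with a difference of 2.07 (SE 0.81, limma adjusted p = 1.00). Both of the first 2 failed with the values as deposited and passed after quantile normalization, where POU5F1 differed by 3.85 (limma adjusted p = 0.0381) and DPPA5 by 3.91 (limma adjusted p = 0.0471), and where 0.375% of all probe sets were called. In a fit of the 4 iPS lines alone, limma gave POU5F1 an SE of 0.25 and an adjusted p of 0.0514, and DPPA5 an SE of 0.32 and an adjusted p of 0.0747.

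ZFP42 differed by 1.29 (95% interval -0.15 to 2.74) and NR0B1 by 1.25 (95% interval -0.84 to 3.35). The 3 concordant NR5A2 probe sets differed by 1.74 to 2.59, and the other 2 by -0.24 and -0.10, with intervals reaching from -1.98 to 1.49 and from -1.74 to 1.54. Without PS24, the array with a mean 5' minus 3' control value of -1.90, the differences against 30AC5 alone were 3.72 for POU5F1 and 3.02 for DPPA5. The part of that control value in the member values was not tested. Without iPSCs-w the DNMT3B difference was 1.22, and without iPF4-2 the probe set Ssc.19587.1.A1_at of NR5A2 differed by 1.20.

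**Figure D3:**
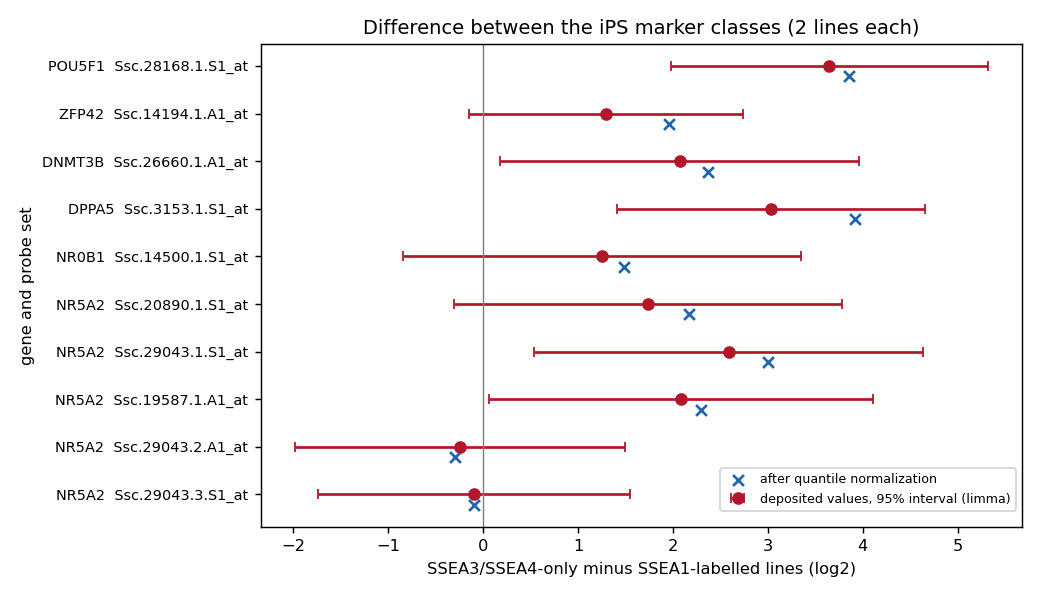
Difference between the SSEA3/SSEA4-only lines and the SSEA1-labelled lines in log2 units (horizontal axis) for each probe set (vertical axis), 2 lines per class; circles with bars are limma estimates with 95% intervals from the deposited values and crosses are the differences after quantile normalization. POU5F1 at 3.65 and DPPA5 at 3.03 lie furthest to the right, and 2 NR5A2 probe sets lie near 0.

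The iPS classes were then set against the somatic samples in the same fit. These comparisons share their somatic arrays with each other and the iPS arrays with the comparison above, so they are given side by side. In the SSEA3/SSEA4-only lines 3 of 10 member probe sets lay above both somatic samples, against 19.3% of all probe sets, and none lay below both, against 18.8%. After median centring 7 lay above both, against 22.8% of all, and after quantile normalization 8 did, against 22.6%, while the NR5A2 probe set Ssc.29043.3.S1_at lay below both under either. Limma called 0 of 10 and 0% of all, with 3 members at an unadjusted p under 0.05 against 9.45% of all. POU5F1 averaged 3.65 in these lines and 0.29 in the somatic samples, a difference of 3.35 (SE 0.72, limma adjusted p = 0.297). DPPA5 differed by 2.12 (SE 0.70, limma adjusted p = 0.450) and DNMT3B by 2.09 (SE 0.81, limma adjusted p = 0.507).

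Against a single somatic sample, assumed to vary like the iPS lines, the result depended on which one was kept. Against PEF alone, POU5F1 was higher by 4.15 (limma adjusted p = 0.0251), where 1.50% of all probe sets were called, and DPPA5 by 2.78 (limma adjusted p = 0.0542). Against PAFSC alone, POU5F1 was higher by 2.55 (limma adjusted p = 0.00423) and DPPA5 by 1.46 (limma adjusted p = 0.0273). The NR5A2 probe set Ssc.29043.3.S1_at was lower, by -1.47 (limma adjusted p = 0.0141), and 7 of 10 members were positive. In that fit 60.1% of all probe sets were called.

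In the SSEA1-labelled lines 0 of 10 lay above both somatic samples, against 16.5% of all probe sets, and 2 of 10, ZFP42 and DPPA5, lay below both, against 16.1% of all probe sets. Limma called 0 of the 10 members and 0% of all, with 0 members at an unadjusted p under 0.05 against 6.56% of all. The differences from the somatic samples ran from -1.15 to 0.24 with a median of -0.75, against -0.34 over all probe sets. This direction rests on PAFSC: 2 of 10 were positive with both somatic samples, 7 of 10 against PEF alone and 0 of 10 against PAFSC alone. The median member difference was 0.12 against PEF alone, where the median over all probe sets was 0.13. Against PAFSC alone it was -1.29, where the median over all probe sets was -0.72. POU5F1 averaged -0.00 in PS24 and 30AC5 and 0.29 in the somatic samples. Taken over all 4 iPS lines, 0 of 10 members were clear of both somatic samples in either direction, where 11.9% of all probe sets were higher and 9.99% lower. Limma called 0 of 10 in that comparison against 0.025% of all, and 0 at an unadjusted p under 0.05 against 13.7%, with a median difference of 0.15 for the members, and 6 of 10 positive. That split hung on the somatic arrays, since 10 were positive without PAFSC and 2 without PEF.

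The 5 genes with 1 probe set were compared pairwise over the 6 arrays. Pearson's r ran from 0.636, for ZFP42 and NR0B1, to 0.968, for POU5F1 and DPPA5, and from 0.598 to 0.978 without PAFSC. The genes outside the set with the most similar pattern were then sought among 4620 genes whose probe sets spanned at least 2 log2 units. For POU5F1 they were HSD17B2, a steroid dehydrogenase (r = 0.992), AIF1, which binds calcium in macrophages (r = 0.979), and LOC100157017 (r = 0.973). DNMT3B ran closest to NUP85, a nuclear pore protein (r = 0.993), ASS1, an enzyme of arginine synthesis (r = 0.989), and PTBP1, a splicing regulator (r = 0.982).

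DPPA5 was closest to PYGM, the muscle glycogen phosphorylase (r = 0.962), S100A14 (r = 0.958) and LYPD6 (r = 0.953). ZFP42 was closest to LYPD6 (r = 0.976), ABCG2, a drug efflux transporter (r = 0.971), and RAP1GDS1 (r = 0.969). For NR0B1 the genes were RNF149 (r = 0.984), RMND5A (r = 0.972) and PLLP (r = 0.972), and for the NR5A2 probe set Ssc.29043.1.S1_at they were SMPX (r = 0.979), TGFA, a growth factor (r = 0.974), and PYGM (r = 0.958). All these are r over 6 arrays. Spearman's correlation or leaving out PAFSC named other genes, with at most 1 of the 3 shared for any member, so the names depend on the measure.

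Of 34 further pluripotency factors and markers listed, 5 were measured, and limma called 0 of them between the iPS classes, also with 0 at an unadjusted p under 0.05. Their median difference was 0.80, against -0.01 over all probe sets, with 4 of 5 positive. ALPL, the alkaline phosphatase that stains pluripotent colonies, was 2.42 in iPF4-2, 3.06 in iPSCs-w, 0.81 in PS24 and 2.44 in 30AC5, and -2.46 in PEF and -0.81 in PAFSC. ALPL was therefore above both somatic samples in every iPS line, which none of the 10 member probe sets was. CD9, a membrane tetraspanin of stem cells, was also above both, at 0.25, 0.37, 1.12 and 0.76 in iPF4-2, iPSCs-w, PS24 and 30AC5, against -0.61 in PEF and -1.77 in PAFSC. In the iPS against somatic comparison neither passed (limma adjusted p = 0.160 for ALPL and 0.277 for CD9). KLF4, a reprogramming factor that somatic cells also express, was -0.79 in iPF4-2, -0.80 in iPSCs-w, -2.91 in PS24 and -0.63 in 30AC5, against 2.12 in PEF and 2.79 in PAFSC. It was lower in all 4 iPS lines than in both somatic samples (limma adjusted p = 0.160 over the 4 lines). KLF4 differed between the iPS classes by 0.97 and GJA1, the gap junction protein connexin 43, by 0.80, each with a limma adjusted p of 1.00.

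DNMT3B was read beside 10 measured genes, of 21 listed, of DNA and histone methylation and the Polycomb complex. Limma called 0 between the iPS classes, their median difference was 0.14, and 2 were higher and 1 lower without overlap, against 20.2% and 21% of all probe sets. DNMT3A, the sister enzyme of DNMT3B, was 0.42 in iPF4-2 and 0.09 in iPSCs-w, -0.13 in PS24 and -0.43 in 30AC5, and 0.99 in PEF and 1.15 in PAFSC. With the values as deposited, DNMT3A was thus lower in all 4 iPS lines than in both somatic samples, where DNMT3B was highest in iPSCs-w and iPF4-2. The PAFSC value of DNMT3A comes from the array with a median of 0.70, and its percentile was not taken. The PEF array, with a median of -0.06, does not share that shift. JARID2, a Polycomb partner, was 0.94 in iPF4-2, 0.80 in iPSCs-w, 1.67 in PS24 and 1.17 in 30AC5, against -1.03 in PEF and -0.81 in PAFSC. The Polycomb methyltransferase EZH2 differed between the iPS classes by -0.53 and MBD2, a methyl-CpG binding protein, by 0.45, both with a limma adjusted p of 1.00.

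NR0B1 and NR5A2 were read beside 20 measured nuclear receptors and coregulators, of 31 listed. The median class difference was -0.09, 8 of 20 were positive, and limma called 0. The sister receptor NR5A1, which shares the binding motif of NR5A2, was 0.56 in iPF4-2, -0.02 in iPSCs-w, 0.18 in PS24 and 0.41 in 30AC5, and -0.09 in PEF and 2.72 in PAFSC. The largest differences were -1.35 for RARB, a retinoic acid receptor, -0.80 for the glucocorticoid receptor NR3C1, -0.74 for the coactivator NCOA1 and -0.71 for RXRB, none of them called. RARB was unlike within its class, at 0.99 in iPF4-2 and -1.07 in iPSCs-w. Of 20 listed chromatin partners of OCT4, 12 were measured, with a median difference of 0.20 and 0 calls. SMARCA4, the BRG1 motor of the SWI/SNF remodeller, had the largest, at 1.36 (SE 1.03), followed by RBPJ at 0.64, CHD4 at 0.58 and HDAC1 at -0.42.

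**Figure D4:**
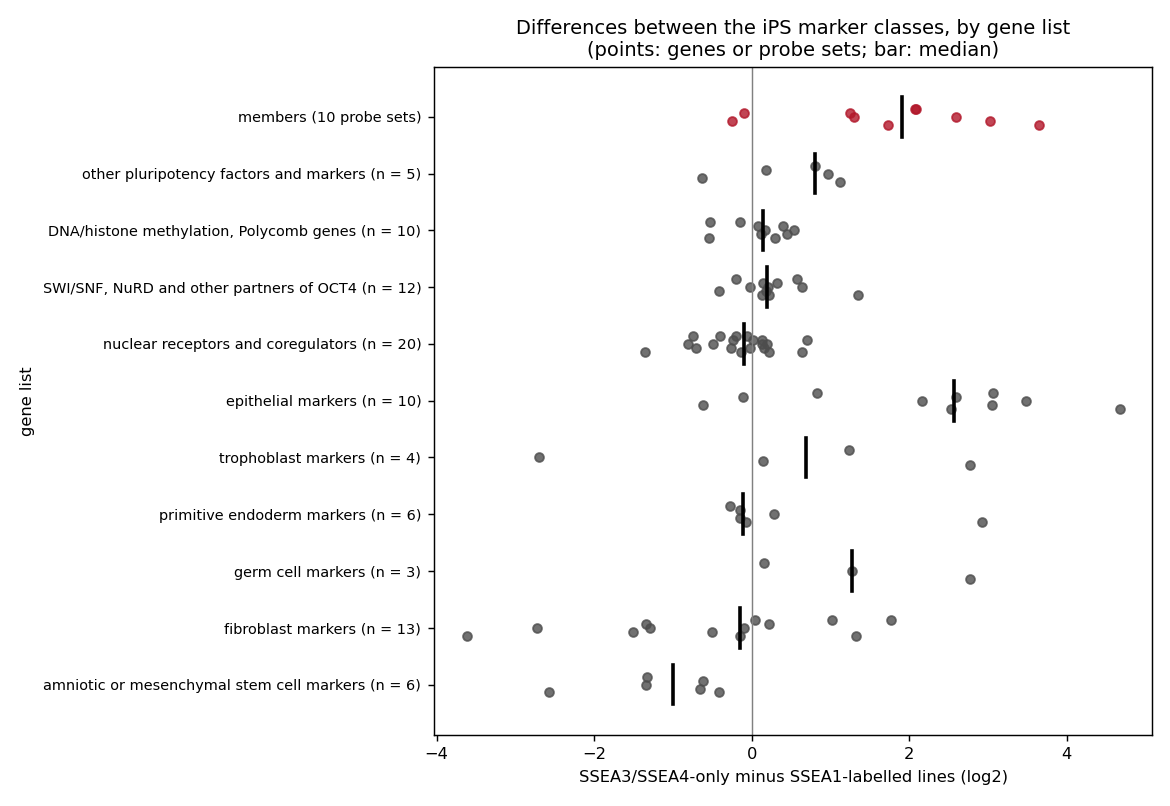
Differences between SSEA3/SSEA4-only and SSEA1-labelled iPS lines in log2 units (horizontal axis) for the 10 member probe sets (dark red) and for the measured genes of 10 lists (grey), with 1 row per list; the black bar is the median. The members have a median of 1.90 and the epithelial markers one of 2.57, while the other 9 lists have medians from -0.99 for mesenchymal stem cell markers to 1.27 for 3 germ cell markers.

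Among the markers of other cell types, most of the epithelial ones were also higher in the lines where the members were high. Of 11 listed epithelial markers 10 were measured, and 8 lay higher without overlap in iPF4-2 and iPSCs-w than in PS24 and 30AC5, where 20.2% of all probe sets did. Of these markers 7 were higher at an unadjusted p under 0.05, against 1.12% of all, and limma called 0. The median difference was 2.57. Their median value per array was 2.09 in iPF4-2 and 3.13 in iPSCs-w, -0.34 in PS24 and 1.04 in 30AC5, and -0.85 in PEF and -0.02 in PAFSC. EPCAM, an adhesion molecule of epithelia that pluripotent cells also carry, was 3.18 in iPF4-2 and 4.98 in iPSCs-w, and differed by 4.68 (SE 0.91, limma adjusted p = 0.417). KRT18 differed by 3.49, DSP by 3.07 and KRT8 by 3.05.

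Among early lineage markers, GATA6, a factor of primitive endoderm, was 3.45 in iPF4-2 and 3.57 in iPSCs-w, 0.53 in PS24 and 0.63 in 30AC5, and -0.32 in PEF and -1.69 in PAFSC. The other 5 measured primitive endoderm markers, of 7 listed, differed between the classes by -0.28 to 0.28, FOXA2, TTR and AFP among them. TFAP2C, a factor of trophoblast and of germ cells, was 2.89 in iPF4-2 and 2.65 in iPSCs-w, -0.04 in PS24 and 0.04 in 30AC5, and -1.06 in PEF and 1.57 in PAFSC. The other 3 trophoblast markers measured, of 9 listed, did not run together: GATA3 differed by -2.70, HAND1 by 1.24 and GATA2 by 0.14. Lines of a class were unlike for these genes. GATA2 was 2.06 in iPF4-2, 1.77 in iPSCs-w, 3.54 in PS24 and 0.01 in 30AC5. GATA3 was 2.63 in PS24 and -0.04 in 30AC5, and HAND1 was 1.28 in iPF4-2 and -0.01 in iPSCs-w. Of 7 germ cell markers 3 were measured. Besides TFAP2C, KIT differed by 1.27, at -0.04 in iPF4-2 and 2.50 in iPSCs-w, and DDX4 differed by 0.16. The part of any of these in the values of the members was not tested.

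The somatic labels were checked in the same way. The median of 13 measured fibroblast markers lay between -0.69 and 0.12 in the iPS lines, against 4.61 in PEF and 2.06 in PAFSC. The PAFSC array has a median of 0.70 over all probe sets, and its primitive endoderm markers had a similar median, at 2.04. The PAFSC value of 2.06 therefore does not identify fibroblasts. PEF and PAFSC also differed by gene, with DCN at -0.17 in PEF and 10.69 in PAFSC. Between the iPS classes the median difference of the fibroblast markers was -0.14, with PRRX1 at -3.62, FN1 at -2.73, LUM at 1.77 and COL5A1 at -1.50. For FN1 and LUM the SSEA3/SSEA4-only lines were far apart. FN1 was 1.00 in iPF4-2 and -5.39 in iPSCs-w, and LUM was 3.77 in iPF4-2 and -0.69 in iPSCs-w. POSTN was likewise higher in iPF4-2, at 3.01 against -0.48 in iPSCs-w. The 6 measured markers of mesenchymal stem cells, a kind the amniotic fluid sample could resemble, had a median of 1.47 in PEF and 0.31 in PAFSC, so they did not set PAFSC apart from PEF. All 6 were lower in the SSEA3/SSEA4-only lines on average, led by ALCAM at -2.57, THY1 at -1.35, VCAM1 at -1.33 and ITGB1 at -0.66. Limma called 0 of either list between the iPS classes.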

How the data were processed

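Per the labels' protocols, biotin-labelled cRNA from total RNA was hybridised to the Affymetrix Pig Genome Array. The deposited table holds values for 24123 probe sets on 6 arrays, read here as log2 from their range; the authors' software, background correction, normalization and baseline were not given in the sources used. The 124 array controls were left out. The platform annotation gave 1 symbol to 10069 of the other probe sets, several to 198 and none to 13732. All 10 member probe sets had the same symbol in the RefSeq gene table (Sscrofa11.1).

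Samples were grouped by labelled surface markers. Limma 3.58.1 (R 4.3.3; two-sided, adjusted by Benjamini-Hochberg across all 23999 at 0.05) was run with 2 groups (4 residual degrees of freedom) or 3 groups (3). It was tested on simulated data. The number of arrays limits the precision.

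Members and lists were chosen with earlier results of these data known. Named were all members, the 3 genes most like each (Pearson, 6 arrays, range of at least 2) and up to 4 genes per list with the largest class difference, using the probe set with the widest range. NR5A1 was named beyond that rule, after its values were seen, as the sister gene of NR5A2. Alternatives were quantile normalization, median centring, a trend or robust prior, leaving out the lowest 40% by mean, the 4 iPS lines alone, each array left out, other correlation measures and averaging the probe sets of a gene.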

Additional observations from a re-analysis of the deposited data

Results flagged for a closer look

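DPPA5 drew attention because the iPS classes lay on opposite sides of the somatic samples: both SSEA3/SSEA4-only lines were above PEF and PAFSC and both SSEA1-labelled lines were below them. The classes differed by 3.03 (limma adjusted p = 0.649 with the deposited values). PS24 and 30AC5 lay within the pooled SD of 0.602 of PEF, so the lower side is not resolved. The SSEA1-labelled lines differed from the somatic samples by -0.91 (limma adjusted p = 0.683).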

How the results depend on the processing

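Between the iPS classes, the 8 positive member differences stayed positive under quantile normalization, median centring and without each iPS line in turn, from 3.58 to 3.85 for POU5F1 and from 2.70 to 3.91 for DPPA5; the other settings cannot move them. The flat NR5A2 probe sets changed sign when an array was left out, with Ssc.29043.2.A1_at from -0.59 to 0.10 and Ssc.29043.3.S1_at from -0.23 to 0.04 (0.039 without PS24). Over all probe sets limma called 0 in this comparison, 90 after quantile normalization, 44 without the lowest 40% by mean and 4 in the iPS lines alone; with 1 array left out it called 0 to 4. For SSEA3/SSEA4-only lines against somatic samples the count was 0, with 3, 49 and 0 to 14432 for quantile normalization, the filter and 1 array left out (360 without PAFSC). For SSEA1-labelled lines it was 0, with 7, 23 and 0 to 14241. For all iPS lines it was 6, with 1 after median centring, 2 with a trend, 35 with the filter and 0 to 14303 with 1 array left out (136 without PAFSC). The highest counts came from leaving out PEF. The causes were not tested. The epithelial median was 1.71 when probe sets were averaged per gene. No paired analysis was made, since the arrays are of different lines and cultures.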

Other observations

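Of the 10 measured DNA and histone methylation and Polycomb genes, 6 were higher in every iPS line than in both somatic samples and 1 was lower, where 11.9% of all probe sets were higher and 9.99% lower. Their median iPS minus somatic difference was 0.88, against -0.34 over all probe sets. Of the 20 nuclear receptors and coregulators, 0 were higher and 6 lower in every iPS line, with a median difference of -0.89. The median receptor value was -0.23 to -0.00 in the iPS lines, against 0.07 in PEF and 1.57 in PAFSC, so that difference rests on PAFSC. Limma called 0 of either list, and 4 of the first and 5 of the second had an unadjusted p under 0.05, against 13.7% of all probe sets.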
